A study of Homo sapiens with 18 samples.

Results

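Gene expression in CHLA-90 was set against gene expression in SK-N-BE(2), with both neuroblastoma cell lines carrying the same control hairpin, shNSC. The comparison rests on 6 of the 18 arrays of the series, namely the 3 CHLA-90 arrays and the 3 SK-N-BE(2) arrays labelled shNSC, and on all 21448 probes. In CHLA-90 and in SK-N-BE(2) alike, 250000 cells per well received 1.5 ml of supernatant with pLKO lentivirus that had been produced in HEK-293T cells, a human embryonic kidney line used to package virus. A serum content of 20% was given for all samples. Total RNA was isolated 72 hours later from 3 biological replicates of each line and labelled with biotin. The remaining arrays carry shERK5-4 or shERK5-5, hairpins against ERK5 (MAPK7), and served here only to see which line differences were also present in other samples. Each line is a single culture model, every cell had been exposed to virus, and no untransduced cells were analysed here, so a gene that the vector moves alike in both lines cannot be seen in this contrast. The p-values measure the spread between these samples only.

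Neuroblastoma arises from the sympathoadrenal lineage of the neural crest. Its cells can lie closer to an adrenergic state, in which a set of transcription factors (PHOX2, HAND, GATA, ISL1 and TBX2 among them) is active and noradrenaline-making enzymes are expressed, or to a mesenchymal state, with more of the matrix, cytoskeletal and AP-1 or YAP type genes. MYCN, a transcription factor that pairs with MAX and binds E-boxes, is amplified in high-risk tumours and in SK-N-BE(2), whereas CHLA-90 has no MYCN amplification. Tumours lacking MYCN amplification can maintain their telomeres without telomerase, and loss of the chromatin remodeller ATRX is known in such tumours.

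The lines differed at a large part of the transcriptome. After quantile normalization of the 6 arrays, limma called 11018 of 21448 probes (51.4%) at an adjusted p under 0.05, of which 5383 (25.1%) were higher and 5635 (26.3%) were lower in CHLA-90. Among the 17687 genes with a symbol, 9246 (52.3%) were called, 4609 (26.1%) higher and 4637 (26.2%) lower, and the median log2 difference was -0.02. The counts of each gene list below are to be read against these shares. Every log2 difference given is CHLA-90 minus SK-N-BE(2). A difference beyond 2 on the log2 scale was called for 827 genes that were higher and 725 that were lower, and a difference beyond 6 for 53 higher and 41 lower. Arrays correlated across probes with r between 0.994 and 0.996 within CHLA-90, between 0.994 and 0.995 within SK-N-BE(2) and between 0.927 and 0.932 between lines.

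The balance of the directions depended on the scaling. The deposited array medians were 6.42, 6.39 and 6.35 in CHLA-90, against 5.69, 5.66 and 5.65 in SK-N-BE(2). With the values as deposited, 80.4% of the calls were higher in CHLA-90, with housekeeping centring 72.4%, with median centring 33.9%, with cyclic loess 50.1% and with quantile normalization over 18 arrays 48.8%, against 48.9% in the comparison as given. The median difference of the named genes moved with the scaling, to 0.46 as deposited, 0.30 with housekeeping centring and -0.26 with median centring. A small difference near 0 therefore has no fixed direction here. Under all 6 scalings 5974 named genes (33.8%) were called alike, 3731 (21.1%) higher and 2243 (12.7%) lower, and all 1552 genes called beyond 2 on the log2 scale were among them. In the text below, "under all scalings" refers to these 6. For 10622 named genes (60.1%) the 3 arrays of a line all lay above the 3 of the other, 29.4% with CHLA-90 above and 30.6% with CHLA-90 below, so a lack of overlap was the common case.

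**Figure D1:**
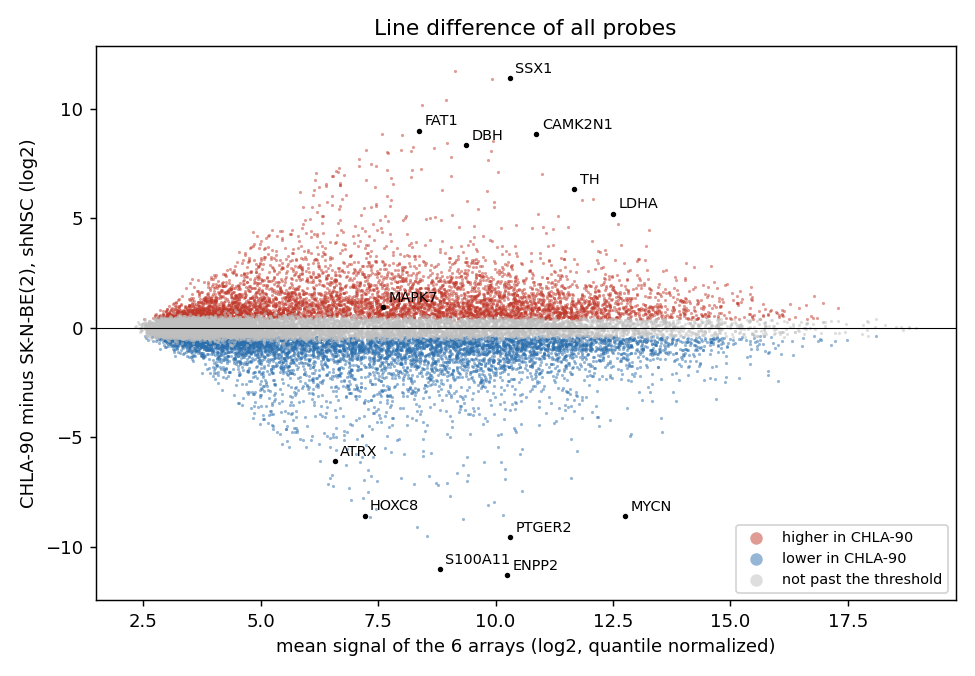
Each point is a probe. The horizontal axis is its mean log2 signal over the 6 arrays after quantile normalization and the vertical axis its log2 difference, CHLA-90 minus SK-N-BE(2), with shNSC. Red points were higher in CHLA-90 (5383 probes), blue points lower (5635) and grey points did not pass an adjusted p of 0.05, while black points are genes named in the text. MYCN lies far below the line with a difference of -8.59, and MAPK7 lies close to the line at 0.95.

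MYCN was the gene that defined the contrast, and its signal was lower in CHLA-90. The MYCN probe (TC0200006799.hg.1) had log2 signals of 8.43, 8.32 and 8.65 in the CHLA-90 arrays, against 17.13, 17.11 and 16.94 in the SK-N-BE(2) arrays. The groups were far apart, with SK-N-BE(2) near the top of the range of the array. The difference was -8.59 ± 0.15 (SE), 386-fold, with an adjusted p of 1.21e-11, and between -9.05 and -8.33 under the other scalings. It was -8.68 with shERK5-4 and -6.65 with shERK5-5, each in 6 other arrays. MYC, the related factor, had 3.56, 3.09 and 3.26 in CHLA-90, against 3.38, 4.22 and 3.60 in SK-N-BE(2), and did not pass the test (-0.43, adjusted p = 0.127). MYCL did not pass either (-0.53, adjusted p = 0.0635), nor did MAX, the dimerisation partner of all 3 (-0.30, adjusted p = 0.115).

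Other genes of the wider MYC and MAX network differed in both directions. MXD1, which competes with MYC proteins for MAX, was higher in CHLA-90 (9.59 ± 0.13 in CHLA-90 and 8.14 ± 0.20 in SK-N-BE(2), SD, n = 3 each, difference 1.45, adjusted p = 1.47e-05), and so was MGA, a repressor that binds MAX (1.17, adjusted p = 7.55e-05). MXI1, another MAX-binding antagonist of MYC, was lower (-1.82, adjusted p = 9.39e-07), as was MLXIP, the glucose-sensing factor also called MondoA (-1.20, adjusted p = 0.000261). In all, 2 of 12 measured genes of the network were higher and 3, MYCN among them, lower, 41.7% called against 52.3% of all named genes. All 5 kept their call under all scalings and with each of the 3 hairpins.

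The measured neighbours of MYCN on chromosome 2 did not share its difference. DDX1, an RNA helicase gene that is often co-amplified with MYCN, had 13.58, 13.46 and 13.25 in CHLA-90, against 12.97, 13.07 and 12.99 in SK-N-BE(2). The CHLA-90 arrays were all higher, by 0.42 (adjusted p = 0.0339), but with median centring the difference was -0.02. NBAS, a gene of Golgi to endoplasmic reticulum transport on the same side, differed by 0.55 and was not called (adjusted p = 0.0731). CYRIA, a regulator of actin, which follows MYCN on the other side, was higher by 1.86 (adjusted p = 1.05e-05). Farther out, LRATD1 (1.86) and SMC6, a subunit of a complex of chromosome maintenance (1.44), were higher, while TRIB2, a pseudokinase (-0.96), was lower. MSGN1, a mesoderm factor, was called lower (-0.47) but differed by 0.23 with the values as deposited. DNA copy number was not analysed here.

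The genes with the most positive differences were mostly dim in SK-N-BE(2) and bright in CHLA-90. TMEM176A, a membrane protein gene, had 14.96, 14.82 and 15.18 in CHLA-90, against 3.59, 3.27 and 2.95 in SK-N-BE(2), a difference of 11.72 ± 0.19 (adjusted p = 7.89e-12). Its neighbour TMEM176B followed with 8.06 ± 0.17. All 3 arrays of CHLA-90 were bright for both, with no overlap. FAT1, a giant cadherin that acts on Hippo signalling, had 13.04, 12.66 and 12.92 in CHLA-90, against 3.60, 3.98 and 4.03 in SK-N-BE(2) (9.0 ± 0.17). CAMK2N1, an inhibitor of the calcium kinase CaMKII, had 15.14, 15.41 and 15.32 in CHLA-90, against 6.72, 6.44 and 6.19 in SK-N-BE(2) (8.84 ± 0.17). LEF1, a transcription factor of Wnt signalling, differed by 8.44 ± 0.15, and the neuronal G protein subunit GNG3 by 8.51 ± 0.20. PLOD2, an enzyme that hydroxylates collagen lysines (8.12), ASTN1, a neuronal adhesion protein of migrating neurons (8.12), and DCDC1, a doublecortin domain protein (8.83), made up the rest with DBH and the cancer-testis genes described below. The value of DCDC1 is that of its brightest probe. With the probes of DCDC1 averaged the difference was 4.85, so they did not all differ by as much.

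The genes with the most negative differences included secreted and membrane proteins. ENPP2, which encodes autotaxin, the enzyme that makes lysophosphatidic acid, had 4.64, 4.38 and 4.80 in CHLA-90, against 16.04, 15.87 and 15.78 in SK-N-BE(2), a difference of -11.29 ± 0.16 (adjusted p = 3.89e-12). S100A11, a calcium-binding protein, had 3.34, 3.36 and 3.20 in CHLA-90, against 14.23, 14.34 and 14.40 in SK-N-BE(2) (-11.03 ± 0.14). S100A10, the partner of annexin A2, followed with -8.74 ± 0.24. In each case SK-N-BE(2) was bright and CHLA-90 near the low end of the array. PTGER2, a prostaglandin E2 receptor, averaged 5.54 ± 0.12 in CHLA-90 and 15.09 ± 0.12 in SK-N-BE(2) (SD, n = 3 each; -9.55 ± 0.15). CORIN, a membrane protease that processes natriuretic peptide, differed by -9.49 ± 0.21, and IGFBP3, which binds insulin-like growth factors, by -9.11 ± 0.16. The transcription factor NFIX (-8.63), the olfactomedin OLFM1 (-8.27), the BMP antagonist GREM1 (-7.94), the germline protein TDRD1 (-7.86), the irritant-sensing channel TRPA1 (-7.79), the surface antigen CD99 (-7.68) and the desmosomal plakophilin PKP2 (-7.48) completed this group with MYCN and HOXC8. The 15 genes named at each extreme were called alike under all scalings and with each of the 3 hairpins.

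**Figure D2:**
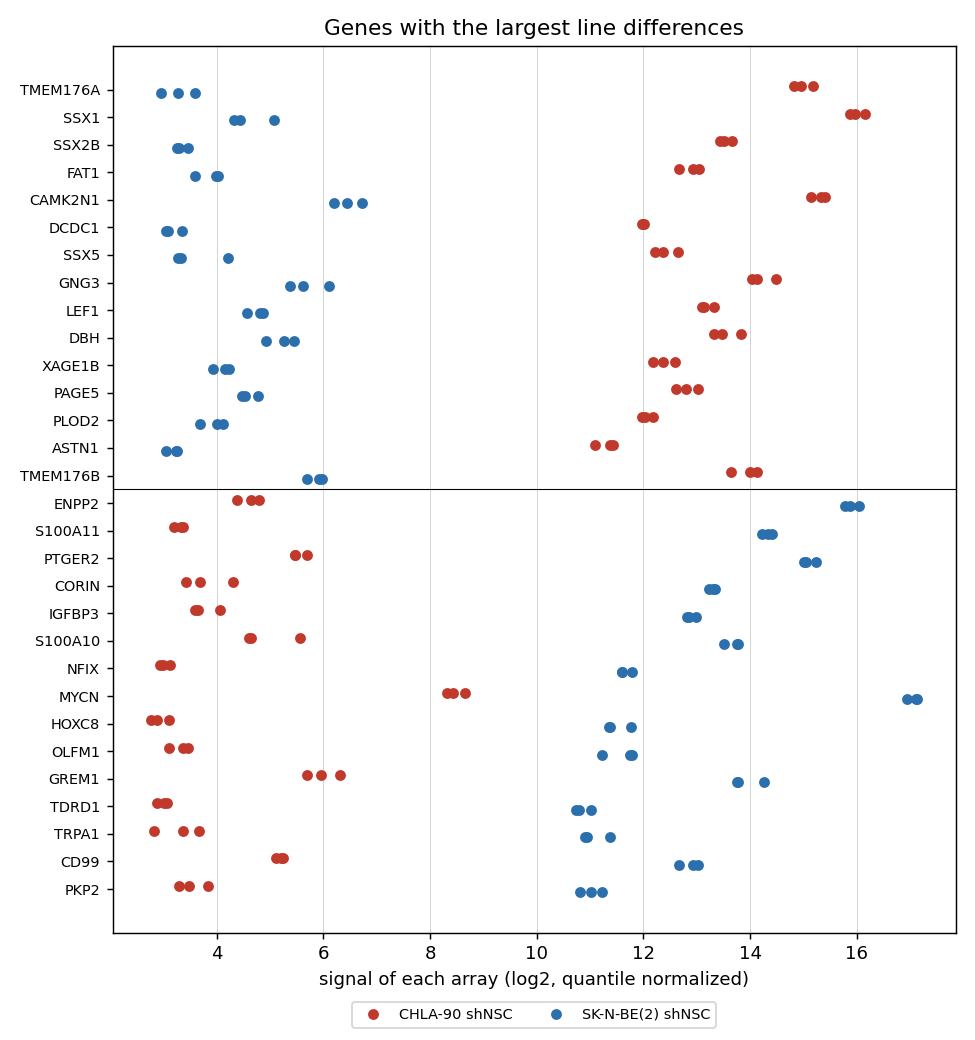
Log2 signal of each array (horizontal axis, quantile normalized) for the 15 called genes at the higher and the 15 at the lower extreme. Red points are the 3 CHLA-90 arrays and blue points the 3 SK-N-BE(2) arrays with shNSC. No gene shows overlap between the lines, and MYCN is the only gene lower in CHLA-90 whose CHLA-90 arrays lie above 8.

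Cancer-testis antigens, proteins normally restricted to the germ line and re-expressed in some tumours, stood out by direction. Of 24 measured members 15 were higher in CHLA-90 and 0 lower, and 9 were not called, with a median difference of 2.54 against -0.02 over all named genes. The 15 were higher under all scalings and with each of the 3 hairpins. SSX1, a transcriptional repressor known from synovial sarcoma fusions, had 15.96, 16.15 and 15.87 in CHLA-90, against 4.43, 4.32 and 5.07 in SK-N-BE(2), a difference of 11.39 ± 0.20 (adjusted p = 1.21e-11). MAGEC2, a ubiquitin ligase regulator, had 11.12, 11.21 and 11.13 in CHLA-90, against 3.78, 4.22 and 3.22 in SK-N-BE(2) (7.41 ± 0.22). PRAME, a repressor of retinoic acid receptor signalling, had 13.72, 13.84 and 13.95 in CHLA-90, against 9.30, 9.03 and 9.40 in SK-N-BE(2) (4.59 ± 0.16). All CHLA-90 arrays exceeded all SK-N-BE(2) arrays for these genes. CTAG2 (6.58), PAGE2 (7.69), PAGE5 (8.21) and XAGE1B (8.27) were also higher.

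Not every family took part, as a look at whole families, chosen after their values were seen, showed. All 8 measured SSX genes and pseudogenes were higher, with differences between 2.05 (SSX7) and 11.39 (SSX1), and so were all 9 measured CT45 genes, between 5.61 and 7.30. Of the MAGEA genes 7 of 10 were higher, with MAGEA9 at 6.08, while MAGEA3 (-0.05) and MAGEA6 (0.36) did not pass the test. Of the MAGEB genes 1 of 8 was higher and 1 lower, and of the GAGE genes 1 of 5 was higher. Members of SSX, CT45, MAGE and PAGE are near-identical copies whose probes can share signal, so single members are uncertain. Promoter letters lie outside the probed transcripts and do not measure that sharing. The 100 bases before the annotated start of the SSX genes with the largest differences, and of SSX7 with the smallest, are shown with each CG, the site of DNA methylation, in capitals, from RefSeq on GRCh38.p14 at chrX:48255292-48255391 (plus strand), chrX:52751152-52751251 (plus strand), chrX:48196796-48196895 (minus strand) and chrX:52654901-52655000 (minus strand).
SSX1: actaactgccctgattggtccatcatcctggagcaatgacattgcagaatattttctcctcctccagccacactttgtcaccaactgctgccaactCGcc
SSX2B: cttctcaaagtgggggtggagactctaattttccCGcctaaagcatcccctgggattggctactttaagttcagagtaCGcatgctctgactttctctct
SSX5: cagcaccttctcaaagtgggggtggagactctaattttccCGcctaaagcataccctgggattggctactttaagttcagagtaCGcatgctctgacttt
SSX7: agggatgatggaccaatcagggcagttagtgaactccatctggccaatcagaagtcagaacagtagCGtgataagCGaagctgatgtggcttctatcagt

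The promoters, 250 bases before to 50 after the start, shared most of their letters, but not in the same orientation or at the same offset. In local alignments, SSX2B matched SSX5 at 91.9% of 295 aligned positions and SSX7 at 91.1% of 180, all read 5′ to 3′ along their own gene. SSX1 matched SSX2B at 89.0% of 209 positions and SSX7 at 87.9% of 207 only when the other promoter was read on its opposite strand. The strands and starts are as the table gives them and were not checked further. The promoters of SSX1, SSX2B, SSX5 and SSX7 held 5, 10, 9 and 6 CGs, against a median of 22 over the 14250 named genes with a promoter in the table. DNA methylation was not analysed here.

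Genes of catecholamine synthesis and storage were mostly higher in CHLA-90. Of 21 measured members 13 were higher and 4 lower, with a median difference of 1.93, and relative to the median of all named genes it was 2.00 with the values as deposited, median centring or housekeeping centring. TH, tyrosine hydroxylase, the rate-limiting enzyme, had 14.86, 14.56 and 15.10 in CHLA-90, against 8.23, 8.86 and 8.44 in SK-N-BE(2), a difference of 6.33 ± 0.20 (adjusted p = 5.78e-10). DBH, dopamine beta-hydroxylase, which makes noradrenaline, had 13.48, 13.32 and 13.83 in CHLA-90, against 5.26, 4.92 and 5.45 in SK-N-BE(2) (8.34 ± 0.19, adjusted p = 4.85e-11). DDC, the decarboxylase between them, had 11.93, 12.12 and 12.06 in CHLA-90, against 9.29, 9.68 and 9.35 in SK-N-BE(2) (2.60 ± 0.16). The 3 enzymes of the path to noradrenaline were thus all higher, with no overlap of arrays. The vesicular monoamine transporters SLC18A2 (3.51) and SLC18A1 (3.45), the vesicle electron carrier CYB561 (4.43), which supplies DBH with reducing power, and the monoamine oxidases MAOA (2.84) and MAOB (1.93) were higher too. The granule protein CHGA was higher (2.95), whereas VGF, a granin-like neuropeptide precursor, was lower (-2.43), and so was PTS, an enzyme of the biopterin cofactor of TH (-1.57). PNMT, the last enzyme, which turns noradrenaline into adrenaline, had 4.95 ± 0.19 in CHLA-90 and 4.76 ± 0.20 in SK-N-BE(2) (SD, n = 3 each) and was not called (adjusted p = 0.368). SLC6A2, the noradrenaline transporter, was higher with shNSC (1.18, adjusted p = 9.42e-05) but lower with shERK5-4 (-1.09, adjusted p = 0.000619), and this change of the line difference passed its own test (-2.28, adjusted p = 7.91e-06).

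Neurite and synapse genes were also mostly higher, 18 of 24 against 4 lower, with a median of 1.28. L1CAM, a neural adhesion molecule, had 13.33, 13.35 and 13.80 in CHLA-90, against 8.36, 8.19 and 8.38 in SK-N-BE(2), a difference of 5.18 ± 0.17. ELAVL3, a neuronal RNA-binding protein, had 11.57, 11.49 and 11.91 in CHLA-90, against 6.21, 6.46 and 6.82 in SK-N-BE(2) (5.16 ± 0.19). STMN4, a microtubule regulator of the stathmin family (4.39), SYT4, a vesicle calcium sensor (4.28), DCX, doublecortin of migrating neurons (3.20), and SNAP25, a synaptic fusion protein (2.79), were higher as well. The 4 lower members were all intermediate filaments. PRPH, peripherin of peripheral neurons, had 7.51, 7.44 and 7.44 in CHLA-90, against 9.77, 9.57 and 10.01 in SK-N-BE(2) (-2.32 ± 0.16), and the neurofilament genes NEFH (-2.0), NEFL (-1.44) and NEFM (-0.65) were lower, NEFM not under all scalings. INA, another neuronal intermediate filament gene, was higher (2.65).

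The transcription factors of the adrenergic state did not follow the enzymes. Of 20 measured members 4 were higher (20.0%) and 11 lower (55.0%) in CHLA-90, 7 of the lower ones under all scalings. The list's median was -0.62 with shNSC, -1.18 with shERK5-4 and -0.36 with shERK5-5. With the values as deposited the shNSC median was -0.02, or -0.48 relative to the median of all named genes. ISL1, a LIM homeobox factor of sympathetic neurons, had 10.31, 10.52 and 10.21 in CHLA-90, against 13.94, 13.91 and 13.95 in SK-N-BE(2), a difference of -3.59 ± 0.15 (adjusted p = 4.65e-09). SIX3 (-3.38), SOX11 (-2.85), INSM2 (-2.59) and TBX2 (-1.68), all developmental transcription factors, were lower, and PHOX2A, a paired-like factor of noradrenergic neurons, was lower too (-1.04, adjusted p = 0.00151). GATA3, a zinc finger factor needed for sympathetic neurons, had 14.01, 13.77 and 14.21 in CHLA-90, against 12.13, 11.93 and 12.10 in SK-N-BE(2) (1.94 ± 0.16). GATA2 (2.74), TBX3 (2.94), a relative of TBX2, and LMO3, a LIM-only cofactor (3.16), were the other higher members. HAND2, a basic helix-loop-helix factor, had 11.28 ± 0.07 in CHLA-90 and 11.11 ± 0.12 in SK-N-BE(2) (SD, n = 3 each) and was not called (adjusted p = 0.353). All 4 higher members, and 8 of the 11 lower ones, were called alike with each of the 3 hairpins.

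**Figure D3:**
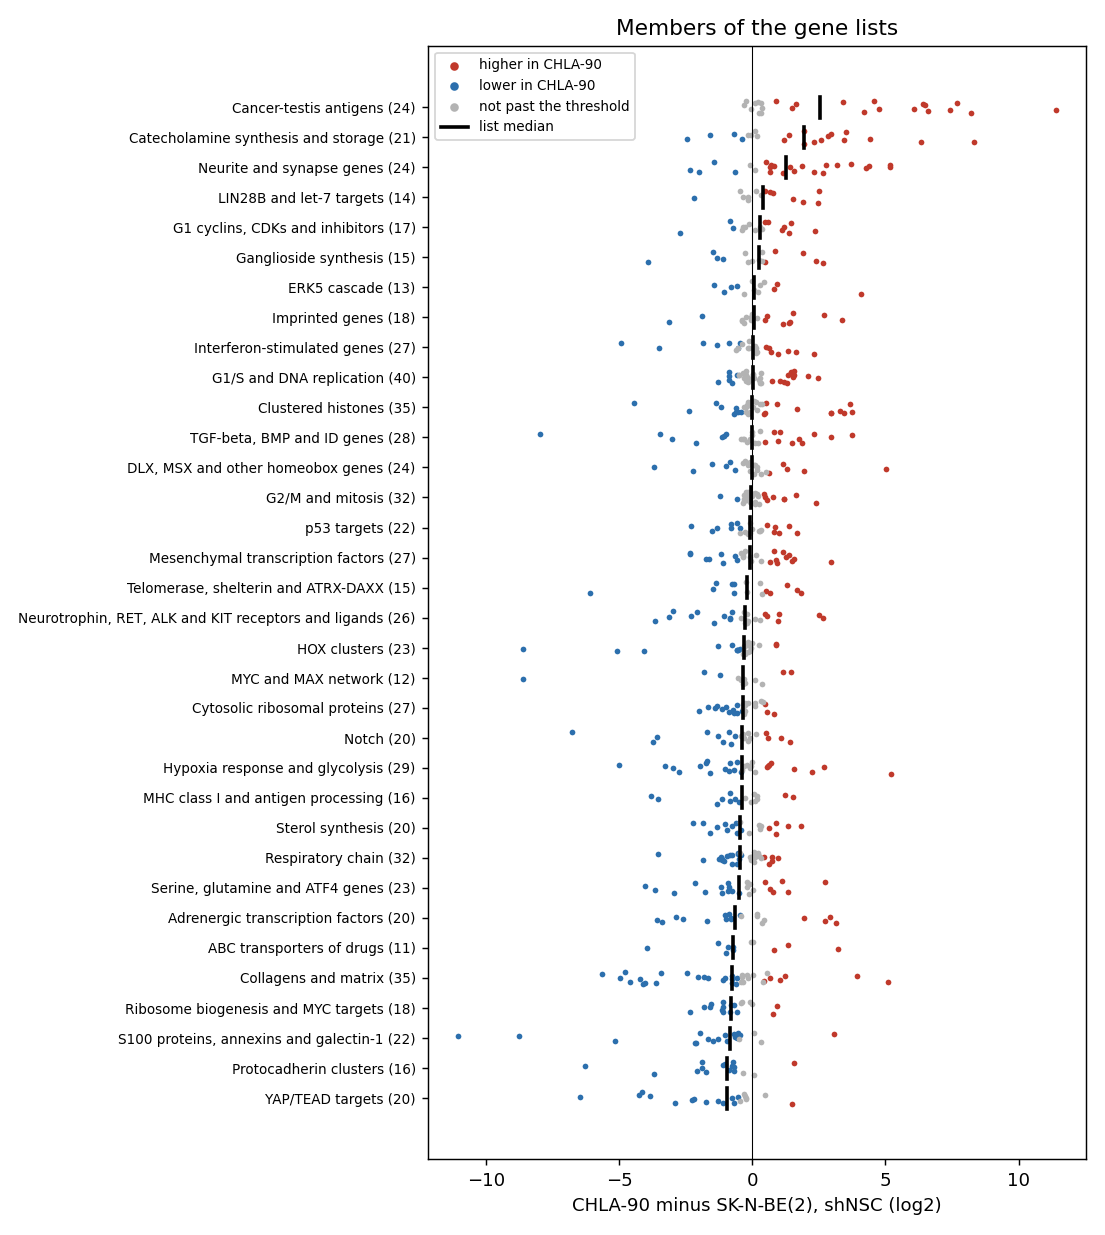
Each point is a measured gene of the list named at the left, with the number measured in brackets, and the horizontal axis is its log2 difference, CHLA-90 minus SK-N-BE(2), with shNSC. Red points were higher in CHLA-90, blue points lower, grey points not past an adjusted p of 0.05, and the black bar is the list's median. Lists run from the highest median, 2.54 for the cancer-testis antigens, to the lowest, -0.94 for the protocadherins and the YAP and TEAD genes, and most lists hold both red and blue points.

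The marker lists for the lines' own cell states and for other cell types were read in the same way. Of 11 measured adrenergic neuroblastoma markers 7 were higher in CHLA-90 and 3 lower, and their mean log2 level lay between 13.14 and 13.34 in the CHLA-90 arrays, against 11.38 to 11.47 in the SK-N-BE(2) arrays. DBH, a member of this list, was dim in SK-N-BE(2), at 4.92 to 5.45 and below the normalized array medians, while the other 10 members had signals above 8 in every array. Of 10 mesenchymal markers 2 were higher and 7 lower, with mean levels of 7.65 to 7.74 in CHLA-90, against 8.83 to 8.99 in SK-N-BE(2). Fibroblast markers were lower for 5 of 9 and higher for 1, with levels of 6.65 to 6.76 in CHLA-90, against 9.12 to 9.18 in SK-N-BE(2). Schwann cell markers had levels of 3.29 to 3.4 in CHLA-90, against 3.69 to 3.8 in SK-N-BE(2), with 3 of 8 lower (SOX10, S100B and GFRA3). The sign of the median turned with the values as deposited for the Schwann, endothelial, blood and epithelial lists, in which 1, 2, 2 and 1 members were lower and 0, 0, 0 and 1 higher under all scalings. Endothelial markers were lower for 4 of 10 and higher for 1, with levels of 4.0 to 4.11 in CHLA-90, against 4.62 to 4.91 in SK-N-BE(2). Blood markers were lower for 2 of 11 and higher for 1 (4.39 to 4.54 in CHLA-90, against 4.93 to 5.06 in SK-N-BE(2)), and epithelial markers lower for 3 of 10 and higher for 2 (4.5 to 4.56 in CHLA-90, against 4.53 to 4.67 in SK-N-BE(2)). PTPRC, the leukocyte antigen CD45, was among the lower blood markers (4.30 ± 0.09 in CHLA-90 and 8.24 ± 0.17 in SK-N-BE(2), SD, n = 3 each), while the T cell gene CD3E and the macrophage gene CSF1R were not called. The array values have no zero and no detection call, and the part of other cell types in these differences was not tested.

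Collagens and other matrix genes were mostly lower in CHLA-90, 20 of 35 (57.1%) against 6 higher (17.1%). Of the 20, 15 were lower under all scalings, and the list's median was -0.74. LUM, lumican, a matrix proteoglycan, had 8.80, 9.20 and 8.71 in CHLA-90, against 14.74, 14.60 and 14.29 in SK-N-BE(2), a difference of -5.64 ± 0.18 (adjusted p = 6.92e-10). BGN, biglycan, had 10.23, 10.18 and 10.76 in CHLA-90, against 15.27, 15.30 and 15.47 in SK-N-BE(2) (-4.96 ± 0.18). The SK-N-BE(2) arrays were all well above the CHLA-90 arrays. COL6A3 (-4.77), COL4A1 (-4.57), COL1A1 (-4.01), the large proteoglycan VCAN (-4.23) and the metalloproteinase inhibitor TIMP1 (-4.09) were lower. COL11A1, a fibrillar collagen, went the other way, with 9.04, 9.0 and 8.55 in CHLA-90, against 4.10, 3.77 and 3.39 in SK-N-BE(2) (5.11 ± 0.21), as did thrombospondin THBS1 (3.95). The COL4A and COL6A genes were themselves split. Of 11 measured, 5 were lower and 3 higher, 4 and 2 of them under all scalings, with differences between -4.77 and 3.98. DCN, decorin, was higher with shNSC (0.68, adjusted p = 0.00167) and lower with shERK5-4 (-0.56) and shERK5-5 (-1.13), so its direction depended on the hairpin.

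The list of S100 proteins, annexins and galectins had 18 of 22 measured members (81.8%) lower and 1 (4.55%) higher. Of the 18, 8 were lower under all scalings, and the list's median was -0.82. The whole families were less one-sided than the list. Of 16 measured S100A genes 8 were lower and 1 higher, 2 and 1 of them under all scalings. Of 14 measured annexin genes 6 were lower and 0 higher, 3 of the 6 under all scalings. Besides S100A11 and S100A10, LGALS3, galectin-3, had 5.24, 5.51 and 5.24 in CHLA-90, against 10.50, 10.43 and 10.44 in SK-N-BE(2) (-5.13 ± 0.15). ANXA2, a membrane-binding protein (-2.15), LGALS1 (-1.94) and the intermediate filament VIM (-1.65) were lower. S100A6 was the only higher member, with 7.28, 7.39 and 6.96 in CHLA-90, against 4.29, 3.98 and 4.12 in SK-N-BE(2) (3.08 ± 0.17). Among genes of YAP and TEAD, the effectors of Hippo signalling, and their targets, 13 of 20 (65.0%) were lower and 1 (5.0%) higher. The list's median was -0.94. TEAD2 had 4.36, 3.95 and 3.83 in CHLA-90, against 10.66, 10.52 and 10.38 in SK-N-BE(2) (-6.48 ± 0.17), and the targets ANKRD1 (-4.24) and NT5E (-4.14) and the coactivator WWTR1, also called TAZ (-1.74), were lower. YAP1 itself was higher (1.50, adjusted p = 0.000401), by 3.21 with shERK5-4, but not called with shERK5-5 (0.23, adjusted p = 0.531). Mesenchymal transcription factors were split, 10 of 27 higher and 8 lower with a median of -0.08 whose sign turned with the scaling. FOSL1 (-2.32) and FOSL2 (-2.33), AP-1 subunits, SOX9 (-1.60) and SNAI2 (-1.08) were lower, and ID3 (2.94), SNAI1 (1.27) and PRRX1 (0.67) were higher.

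Genes of ribosome biogenesis, many of them known MYC targets, were lower for 12 of 18 measured members and higher for 2, with 9 of the 12 lower under all scalings and a median of -0.81. NPM1, a nucleolar chaperone, had 13.63, 13.75 and 13.16 in CHLA-90, against 15.87, 15.85 and 15.81 in SK-N-BE(2), a difference of -2.33 ± 0.17 (adjusted p = 6.21e-07). UTP20, a processing factor of the small subunit, had 9.47, 9.41 and 9.53 in CHLA-90, against 10.99, 11.26 and 10.86 in SK-N-BE(2) (-1.57 ± 0.15), and NAT10, an RNA acetyltransferase of the nucleolus, was lower by a like amount (-1.55). NOP16 (-1.79), nucleolin NCL (-1.11) and the pyrimidine enzyme CAD (-1.07) were lower, with all CHLA-90 arrays below all SK-N-BE(2) arrays in each. SRM, spermidine synthase, and POLR1B, a subunit of RNA polymerase I, were higher (0.77 and 0.95), SRM not under all scalings. With shERK5-4 the list's median was -0.08 and with shERK5-5 -0.88, and 5 of the 12 lower members were called alike with each hairpin.

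The E-box CACGTG, the same on both strands, is a motif that MYC and MAX bind. It lay in the promoter (250 bases before to 50 after the start) of 8 of 15 genes of the ribosome biogenesis list with a promoter in the table, 53.3%, against 1238 of 14250 named genes, 8.69%. Over all named genes it lay in 314 of 3836 promoters of genes higher in CHLA-90 (81.9 per 1000), in 376 of 3743 of lower genes (100.5 per 1000) and in 548 of 6671 of genes not called (82.1 per 1000). A match is a description of the letters and not a binding site. The upstream stretches around the motif, in capitals, are shown for a pair of lower genes and for the higher gene SRM, from RefSeq on GRCh38.p14 at chr12:101280046-101280104 (plus strand), chr11:34105565-34105624 (plus strand) and chr1:11060207-11060266 (minus strand).
UTP20: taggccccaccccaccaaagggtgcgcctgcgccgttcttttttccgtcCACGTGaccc
NAT10: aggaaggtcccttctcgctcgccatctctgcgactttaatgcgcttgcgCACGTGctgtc
SRM: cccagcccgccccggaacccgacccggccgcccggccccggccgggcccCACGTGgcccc

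The motif was thus present in genes of both directions. Among the list's 4 genes without a call, RRP9 (-0.40), NOP2 (-0.37) and MRTO4 (-0.09) carried it too.

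Other growth and metabolism genes were lower more often than higher. Cytosolic ribosomal protein genes were lower for 12 of 27 and higher for 3, with a median of -0.35. RPS25 (-1.98), RPS14 (-1.67) and RPL27 (-1.40) had the largest differences past the threshold, all 12 lower members were lower under all scalings, and none of the 3 higher ones was higher under all of them. Serine, glutamine and ATF4 genes were lower for 12 of 23 and higher for 6. SLC7A11, the cystine importer, had 5.14, 5.84 and 5.91 in CHLA-90, against 9.77, 9.51 and 9.67 in SK-N-BE(2) (-4.02 ± 0.21). PHGDH, the first enzyme of serine synthesis, had 9.35, 9.39 and 9.86 in CHLA-90, against 13.06, 13.16 and 13.32 in SK-N-BE(2) (-3.65 ± 0.17). The amino acid transporter SLC7A5 (-2.15), the serine enzyme PSAT1 (-1.75) and the stress factor ATF4 (-1.16) were lower, while ASNS, asparagine synthetase, differed by 0.03 and was not called (adjusted p = 0.908). VLDLR, a lipoprotein receptor, was higher (2.74).

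Among hypoxia and glycolysis genes 14 of 29 were lower and 8 higher. LDHA, the lactate dehydrogenase A subunit, was the highest, with 15.11 ± 0.20 in CHLA-90 and 9.89 ± 0.26 in SK-N-BE(2) (SD, n = 3 each), a difference of 5.22 ± 0.18 with no overlap of arrays (limma adjusted p = 1.05e-09). Its partner subunit LDHB was lower (-0.82). SLC2A3, a glucose transporter, had 4.17, 3.72 and 4.24 in CHLA-90, against 9.10, 8.98 and 9.03 in SK-N-BE(2) (-4.99 ± 0.17). PFKFB3 (-3.25) and HK2 (-2.96), which drive glycolysis, and PDK1, which holds pyruvate from the mitochondrion (-2.73), were lower, and the growth factor VEGFA (2.70) and neuronal enolase ENO2 (2.26) were higher. Respiratory chain subunits were lower for 17 of 32 and higher for 5, with 8 of the 17 lower under all scalings, SDHD of complex II lowest (-3.52) and SDHC of the same complex highest (0.96). Sterol synthesis genes were lower for 10 of 20 and higher for 5, among them DHCR7, the last reductase of the pathway (-2.21), and TM7SF2, a sterol reductase (1.84), and the sign of this list's median turned with the values as deposited.

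Telomere and chromatin genes held a single very large difference. ATRX, on chromosome X, had 3.40, 3.72 and 3.48 in CHLA-90, against 9.55, 9.59 and 9.71 in SK-N-BE(2), a difference of -6.08 ± 0.15 (68-fold; adjusted p = 9.86e-11). It was -5.77 with shERK5-4 and -4.79 with shERK5-5. DAXX, its histone chaperone partner, was higher (11.45, 11.12 and 11.35 in CHLA-90, against 9.39, 9.46 and 9.54 in SK-N-BE(2); 1.84 ± 0.15). TERT, the catalytic subunit of telomerase, was lower (4.22, 3.96 and 4.19 in CHLA-90, against 5.36, 5.52 and 5.59 in SK-N-BE(2); -1.37 ± 0.15, adjusted p = 1.46e-05). No arrays overlapped in any of the 3 genes. The shelterin genes ACD (1.70) and POT1 (1.31), which cap telomeres, were higher and STN1, of the CST complex, was lower (-1.48). In all 5 of 15 were higher and 6 lower, 3 and 3 of them under all scalings, and the sign of the median turned with the scaling.

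Genes of replication and mitosis were called less often than named genes as a whole, which was not tested as a difference. Of 32 G2 and mitosis genes 8 were higher and 2 lower, 31.2% called against 52.3% of all named genes. Of 40 G1/S and replication genes 12 were higher and 6 lower (45.0% called), with the factor E2F2 (2.46) and the replication protein MCM10 (2.09) highest. RB1, the retinoblastoma protein gene, averaged 13.60 ± 0.16 in CHLA-90 and 11.24 ± 0.25 in SK-N-BE(2) (SD, n = 3 each; 2.36 ± 0.17). CDKN2A, which encodes p16 and ARF, had 5.35, 5.2 and 5.84 in CHLA-90, against 8.19, 7.69 and 8.63 in SK-N-BE(2) (-2.71 ± 0.24). Both kept their direction with each hairpin. CCND1, cyclin D1, was higher (1.12), CDK4 was not called (-0.26, adjusted p = 0.192), and CDK6 was lower with shNSC (-0.83, adjusted p = 0.000908) and higher with shERK5-5 (1.18, adjusted p = 0.00015). Of 22 p53 targets 6 were higher (27.3%) and 7 lower (31.8%), near the 26.1% and 26.2% of all named genes. Of these, 6 were higher and 3 lower under all scalings, and the sign of the list's median turned with the scaling, with XPC, of DNA repair (1.67), highest and GADD45A, a stress gene (-2.29), lowest. CDKN1A, the p21 inhibitor, was not called (0.29, adjusted p = 0.282). Of 35 clustered histone genes 11 were higher (31.4%) and 9 lower (25.7%), again with no fixed sign of the median, H2AC6 (3.73) and H3C10 (3.69) highest and H1-3 (-4.44) lowest. Histone genes are similar in sequence, so that probes may share signal.

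Developmental gene clusters differed by cluster. Of the HOX genes 2 of 23 were higher and 9 lower, 4 of the 9 under all scalings, and the sign of the list's median turned with the scaling. HOXC8 had 2.89, 2.77 and 3.10 in CHLA-90, against 11.77, 11.36 and 11.38 in SK-N-BE(2), a difference of -8.58 ± 0.17. HOXC10 had 3.23, 3.48 and 3.20 in CHLA-90, against 8.41, 7.98 and 8.69 in SK-N-BE(2) (-5.05 ± 0.19), and HOXC9 (-4.06) and HOXC11 (-1.29) followed, while HOXC12 (-0.27) and HOXC13 (-0.07), at the end of the cluster, were not called. HOXC genes, patterning factors of the trunk, were the only called HOX genes beyond 1 in size. Of 16 protocadherin beta genes on chromosome 5, neuronal adhesion receptors, 13 were lower and 1 higher, but only 6 of the 13 under all scalings. PCDHB16 had 6.01, 6.11 and 6.35 in CHLA-90, against 12.67, 12.31 and 12.34 in SK-N-BE(2) (-6.28 ± 0.16), and PCDHB5 was the higher member (1.59). Of 24 DLX, MSX and other homeobox genes 5 were higher and 6 lower, and no fixed sign of the median, with MEIS1, a HOX cofactor, at -3.67. DLX5, a factor of bone and interneurons, had 10.94, 11.09 and 11.30 in CHLA-90, against 6.43, 5.77 and 6.04 in SK-N-BE(2) (5.03 ± 0.19) with shNSC, but 0.64 with shERK5-4 (adjusted p = 0.134), and the change passed its own test (-4.38, adjusted p = 6.37e-06).

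Imprinted genes were higher for 8 of 18 (44.4%) and lower for 2 (11.1%), against 26.1% and 26.2% of all named genes. Under all scalings 6 were higher and 2 lower, and the median of 0.07 turned its sign with median centring. IGF2, a fetal growth factor, had 4.07, 4.02 and 4.07 in CHLA-90, against 7.20, 7.34 and 7.0 in SK-N-BE(2) (-3.13 ± 0.15), whereas ZDBF2 (3.38) and MEST (2.71) were higher. LIN28B, the RNA-binding protein that blocks let-7 microRNAs, had 7.25, 7.5 and 6.93 in CHLA-90, against 9.28, 9.47 and 9.49 in SK-N-BE(2) (-2.19 ± 0.17, adjusted p = 9.91e-07). It was the only lower member of its list, in which 7 of 14 were higher, among them the let-7 targets ARID3B (2.51), IGF2BP2 (1.92) and IGF2BP3 (0.78), while HMGA2 was not called (0.14).

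Growth factor receptors and ligands were lower for 10 of 26 (38.5%) and higher for 6 (23.1%), against 26.2% and 26.1% of all named genes. Under all scalings 7 were lower and 4 higher, and the median of -0.26 turned its sign with the values as deposited. ALK, the receptor kinase mutated in some neuroblastomas, had 9.30, 9.05 and 9.43 in CHLA-90, against 6.35, 7.01 and 6.46 in SK-N-BE(2) (2.66 ± 0.20, adjusted p = 5.40e-07). PDGFRB, a platelet-derived growth factor receptor, had 7.78, 7.47 and 7.83 in CHLA-90, against 11.27, 11.52 and 11.26 in SK-N-BE(2) (-3.66 ± 0.16). The arrays did not overlap in either. FGFR1 (-3.11), the KIT ligand KITLG (-2.98) and IGF1R (-2.09) were lower. The neurotrophin BDNF was higher (2.53), while its receptor NTRK2 was near the low end of the array in both lines (2.79 ± 0.14 in CHLA-90 and 3.05 ± 0.04 in SK-N-BE(2), SD, n = 3 each; adjusted p = 0.163). RET was not called (0.30, adjusted p = 0.149).

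TGF-beta and BMP genes were higher for 10 of 28 and lower for 7, of which 8 and 6 under all scalings, with a median near 0 whose sign turned with the scaling. SMAD6, an inhibitor of BMP signalling, had 12.94, 12.99 and 13.07 in CHLA-90, against 9.26, 9.36 and 9.10 in SK-N-BE(2) (3.76 ± 0.15), and ID3, a BMP target, had 12.54, 12.25 and 12.65 in CHLA-90, against 9.62, 9.56 and 9.43 in SK-N-BE(2) (2.94 ± 0.16). The inhibitory SMAD7 (2.34) and the signal-carrying SMAD2 (1.87) and SMAD4 (1.49) were higher, and the receptors BMPR1B (-3.46) and TGFBR2 (-2.12) and the ligand BMP5 (-2.99) were lower besides GREM1. SMAD2, SMAD4 and SMAD7 all lie on chromosome 18. Of all 8 measured SMAD genes 5 were higher and 3 lower, each under all scalings, with the lowest at -1.06. With each of the 3 hairpins 5 were called higher and 0 lower. Notch genes were lower for 9 of 20 (45.0%) and higher for 4 (20.0%), of which 6 and 3 under all scalings. The sign of their median turned with the values as deposited. MAML2, a coactivator of Notch, had 4.96, 5.30 and 5.36 in CHLA-90, against 11.96, 12.03 and 11.94 in SK-N-BE(2) (-6.77 ± 0.16), and the receptor NOTCH2 (-3.73) and the target HEY1 (-3.59) were lower, while the ligand DLL3 was higher (1.42).

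MAPK7, the kinase that the other hairpins of the series target, had 8.02, 7.93 and 8.28 in CHLA-90, against 7.32, 6.83 and 7.25 in SK-N-BE(2). All CHLA-90 arrays were higher, by 0.95 ± 0.18 (adjusted p = 0.000858), and by 0.92 to 1.63 under the other scalings. In its cascade 3 of 13 genes (23.1%) were higher, MAPK7 included, and 4 (30.8%) lower, near the 26.1% and 26.2% of all named genes. The sign of the median turned with median centring. MEF2C, a transcription factor that ERK5 phosphorylates, had 7.48, 7.70 and 7.32 in CHLA-90, against 2.96, 3.62 and 3.68 in SK-N-BE(2) (4.08 ± 0.20). KLF2, a known ERK5 target in endothelium, was lower (-1.45, adjusted p = 0.000139), and MAP2K5, the kinase upstream of ERK5, was not called (0.30, adjusted p = 0.328).

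Antigen presentation genes were lower for 8 of 16 and higher for 2. TAP2, a peptide transporter, had 3.24, 3.70 and 2.96 in CHLA-90, against 6.83, 7.36 and 7.06 in SK-N-BE(2) (-3.79 ± 0.21), and HLA-C (-3.54) and PSMB8 (-1.33) were lower, while B2M, the light chain, was lower (-0.50, adjusted p = 0.046), though not under all scalings. HLA genes are similar in sequence, so that their probes may share signal. Interferon-stimulated genes were higher for 7 of 27 (25.9%) and lower for 7 (25.9%), close to the 26.1% and 26.2% of all named genes, and the sign of their median turned with median centring. The lower ones were led by IFITM3, which restricts viral entry (3.78, 4.08 and 3.98 in CHLA-90, against 8.76, 8.96 and 8.93 in SK-N-BE(2); -4.93 ± 0.15), with IFITM2 (-3.51) and IFITM1 (-1.83), close copies of it, and the higher ones by IFI6 (2.31) and OAS1 (1.66). Among drug transporters 3 of 11 were higher (27.3%) and 6 lower (54.5%), against 26.1% and 26.2% of all named genes, but under all scalings 3 were higher and 2 lower. ABCB1, the multidrug efflux pump, had 6.64, 6.84 and 6.58 in CHLA-90, against 3.38, 3.37 and 3.60 in SK-N-BE(2) (3.24 ± 0.15), and ABCC3 was lower (-3.93). Of 15 ganglioside genes 5 were higher (33.3%) and 4 lower (26.7%), close to the 26.1% and 26.2% of all named genes, with a median of 0.24 whose sign turned with median centring. ST8SIA1, GD3 synthase (1.90), and B4GALNT1, which makes GM2 and GD2 (2.41), were higher, and the lactosylceramide synthase B4GALT6 was lower with shNSC (-3.92), differed by 0.03 with shERK5-4 (adjusted p = 0.91) and was lower with shERK5-5 (-1.28).

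Neighbouring genes tended to differ in the same direction in several places, which were chosen after their values were seen. The median difference was taken over each run of 25 measured genes in chromosome order, 17110 runs in all, of which 1% lay below -1.03 and 1% above 1.14. Over whole chromosomes the medians were highest on chromosome 18 (0.44) and 13 (0.30) and lowest on 5 (-0.22) and 11 (-0.19). On chromosome 11, from NARS2 to ETS1, 170 of 301 genes (56.5%) were lower and 22 (7.31%) higher, with a median of -0.75, while the 891 genes on the rest of the chromosome had a median of -0.11. Of the 170 lower genes 138 were lower under all scalings and 153 with each of the 3 hairpins. The stretch held genes of the DNA damage response. ATM, the kinase that senses double-strand breaks, averaged 10.11 ± 0.13 in CHLA-90 and 12.32 ± 0.06 in SK-N-BE(2) (SD, n = 3 each; -2.21 ± 0.14). CHEK1, the checkpoint kinase (-2.24), MRE11, a break-end nuclease (-3.18), and H2AX, the histone that marks breaks (-3.05), were lower as well. MAML2, SDHD, RPS25, the methyltransferase KMT2A (-1.76), the ubiquitin ligase CBL (-1.68) and THY1 (-4.44), a surface protein on the fibroblast list, lie in the same stretch. JHY (2.55) and YAP1, described above, were among the higher genes there.

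Shorter stretches stood out on other chromosomes. On chromosome 1, from TRIM67 to B3GALNT2, 21 of 25 genes were lower and 2 higher, with a median of -1.93, and SLC35F3 was higher by 3.21 amid them. On chromosome 5, from PRR7 to ADAMTS2, 22 of 25 were lower and 0 higher (median -1.34). On chromosome 18, from KLHL14 to SETBP1, 20 of 25 were higher and 1 lower (median 1.96), with DTNA, a dystrobrevin (10.26 ± 0.26 in CHLA-90 and 3.28 ± 0.50 in SK-N-BE(2), SD, n = 3 each), at 6.99, NOL4 at 4.30, SYT4 at 4.28 and SETBP1 at 3.76. On chromosome 1, from SV2A to LAMTOR2, 92 of 184 genes were higher and 15 lower, with a median of 0.44. On the rest of that chromosome 573 of 1628 genes were higher and 337 lower, with a median of 0.1. LINGO4 (7.25), CA14 (6.22), a carbonic anhydrase, and the RNA-binding CELF3 (5.49) were highest among the named genes of the stretch. EFNA1 was lower there (-1.41). S100A11 (-11.03) and S100A10 (-8.74), described above, lie in the same stretch and were lower. On chromosome 17, from IFT20 to DHRS13, 20 of 25 were higher (median 1.52), and on chromosome 19 runs rich in zinc finger genes, ALKBH6 to ZNF420 and ZNF428 to ZNF112, had 21 and 20 of 25 higher (medians 1.40 and 1.38). The medians of these stretches had the same sign under the shERK5-4 and shERK5-5 hairpins and, relative to all genes, with the values as deposited, median centring and housekeeping centring. Whether they follow DNA copy number was not tested.

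**Figure D4:**
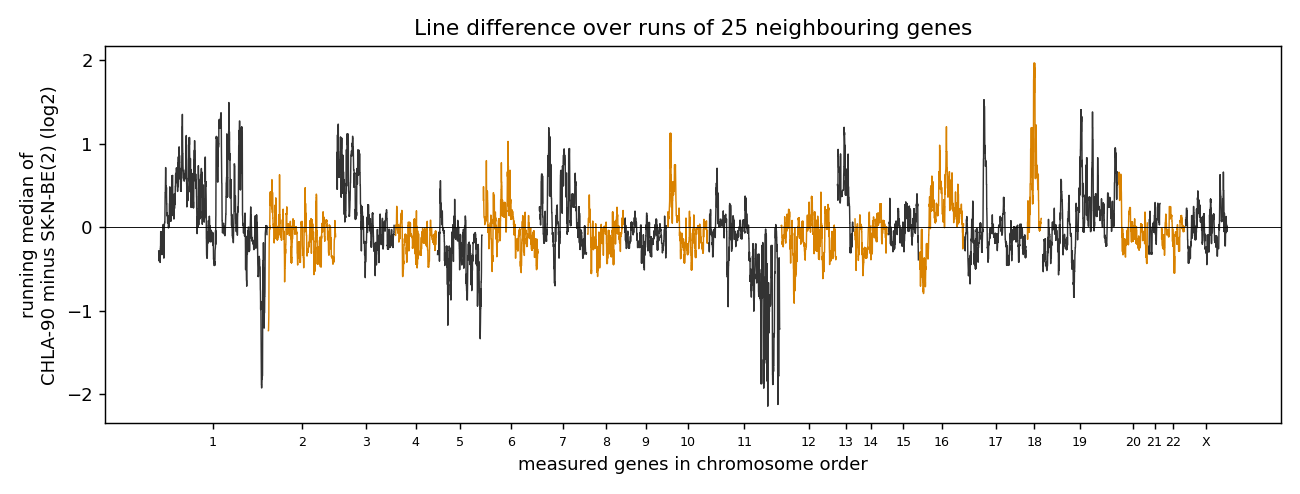
Running median of the log2 difference, CHLA-90 minus SK-N-BE(2), over 25 measured genes (vertical axis), with the genes in chromosome order along the horizontal axis and alternating colours for successive chromosomes. The line falls to -2.15 on chromosome 11 and to -1.93 at the end of chromosome 1, and it reaches 1.96 on chromosome 18.

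The arrays with the ERK5 hairpins showed which line differences were present in other samples of the same lines. With shERK5-4, 9962 probes (46.4%) were called between CHLA-90 and SK-N-BE(2), and 7800 of them were alike in direction with shNSC, 70.8% of the shNSC calls and 78.3% of the shERK5-4 calls, against 101 called in opposite directions. With shERK5-5, 9887 (46.1%) were called and 7801 were alike, 70.8% of the shNSC calls and 78.9% of the shERK5-5 calls, against 85 opposite. The 3 comparisons share no array. All 3 gave the same call for 6402 probes, 3240 higher and 3162 lower, and for 5507 named genes (31.1%). Of the 1552 genes beyond 2 on the log2 scale with shNSC, 1522 (98.1%) were called alike with all 3 hairpins. Single genes, picked after their values were seen, differed in size between hairpins. The difference in DBH was 8.34 with shNSC, 4.00 with shERK5-4 and 7.82 with shERK5-5, and that in GREM1 -7.94, -4.80 and -7.00. DCX differed by 3.20 with shNSC, by 0.43 with shERK5-4 (adjusted p = 0.0524) and by 2.18 with shERK5-5. These changes can lie in either line.

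**Figure D5:**
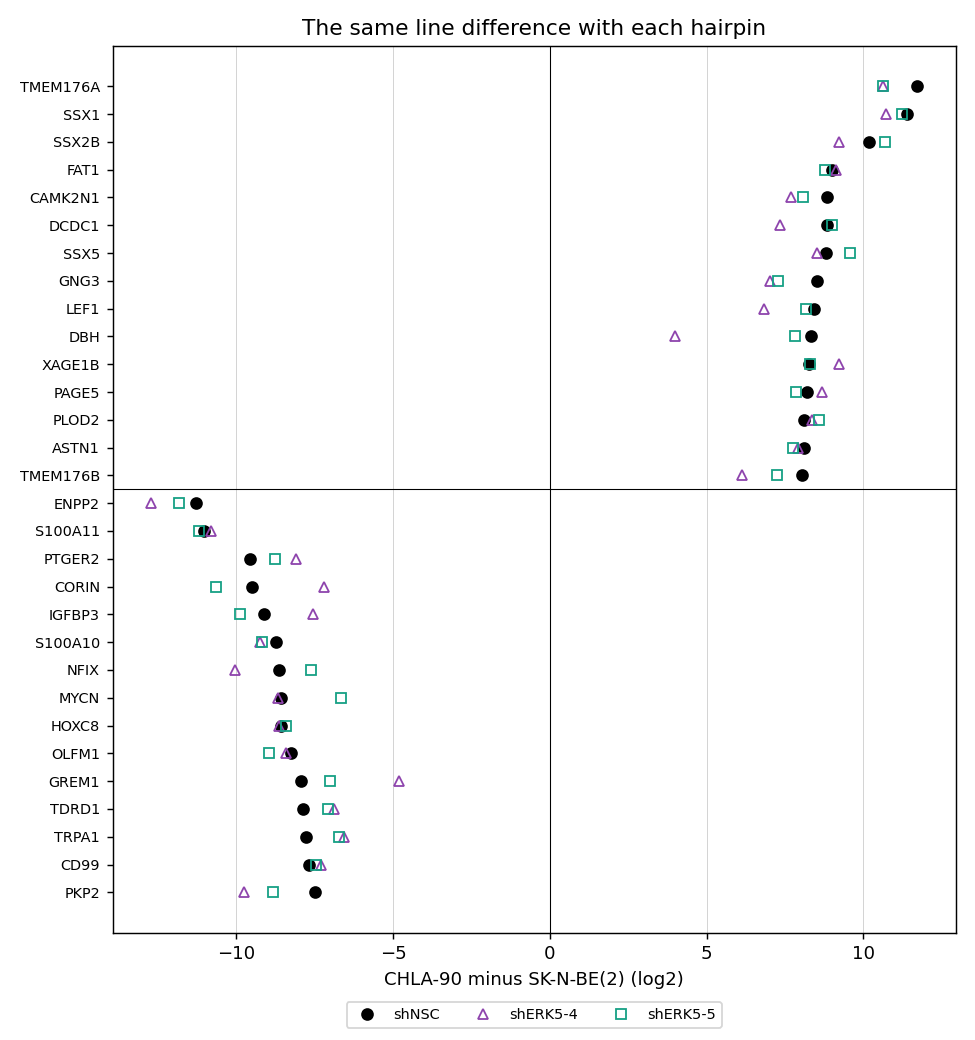
Log2 difference, CHLA-90 minus SK-N-BE(2) (horizontal axis), of the 15 called genes at the higher and the 15 at the lower extreme under shNSC. Black circles are the shNSC arrays, purple triangles the shERK5-4 arrays and green squares the shERK5-5 arrays, each from a fit to its own 6 arrays. All points of a gene lie on the same side of 0, and DBH, CORIN and GREM1 show the widest spread between hairpins.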

How the data were processed

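RNA of 18 arrays was analysed, 6 of them for the main comparison. The authors deposited 1 log2 signal per probe and array with 2 decimals, from 1.73 to 19.15. The log base is inferred from that range. The labelling kit was a whole-transcript one, per the labels' protocols, and how the values were summarised and normalized, with which software and on which build, is not given in the sources used here. No detection calls were used. Groups came from the titles.

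The 6 arrays were quantile normalized together and fitted with limma 3.58.1 in R 4.3.3 (lmFit, eBayes; 4 residual and 6.987 prior degrees of freedom), with Benjamini-Hochberg adjustment over all 21448 probes and a threshold of 0.05. The same fit was made on the 6 shERK5-4 and the 6 shERK5-5 arrays, and a fit of all 18 arrays tested whether a line difference differed between hairpins, with p adjusted over all probes. Of the probes, 17709 carry a single symbol in the platform annotation (17687 genes) and 3739 carry none. The probe with the highest mean stands for its gene. The fit was tested on simulated data.

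The comparison and 42 gene lists (1023 entries, from general knowledge) were chosen with earlier results of these data known. Named genes are MYCN, MAPK7, the 15 called genes at either extreme of the difference (passing over small RNA, open reading frame and locus names), list members with large differences or that define a list, neighbours of MYCN and genes in runs. Families, stretches and single genes contrasted between hairpins were picked after their values were seen. Promoter sequences and gene order came from RefSeq tables of GRCh38.p14, a build the array files do not name, so no probe coordinates are given. Promoters were aligned locally in both orientations. Alternatives were 5 other scalings, leaving out dim probes (lowest 25%), all 18 arrays in the fit, a replicate block, trend and robust estimation, array weights, a threshold of 0.01, a minimum log2 difference of 1, averaged probes and leaving out each array. There is no read depth behind an array signal; precision is limited by the number of arrays. Tables and plots were made in Python 3.11.15 with pandas 2.3.3 and matplotlib 3.10.9.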

Additional observations from a re-analysis of the deposited data

Results flagged for a closer look

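Among MYCN, MAPK7 and the 15 genes at each extreme of the line difference, the difference between CHLA-90 and SK-N-BE(2) itself differed between an ERK5 hairpin and shNSC in 21 cases, by the test of that difference in the fit of all 18 arrays. Over all probes 1439 line differences differed in this way with shERK5-4 and 1040 with shERK5-5, and both tests share the shNSC arrays. A positive value means that CHLA-90 minus SK-N-BE(2) was more positive with the ERK5 hairpin.

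With shERK5-4 the largest case was DBH (-4.36), followed by GREM1 (3.13), CORIN (2.29), PKP2 (-2.29), TMEM176B (-1.91) and LEF1 (-1.60). IGFBP3 (1.57), DCDC1 (-1.50), GNG3 (-1.45), ENPP2 (-1.43), NFIX (-1.42), PTGER2 (1.42), TMEM176A (-1.09), TDRD1 (0.97) and SSX2B (-0.96) differed as well. With shERK5-5 the line difference of MYCN was smaller in size by 1.94 (difference of differences 1.94), and PKP2 (-1.41), GNG3 (-1.23), CORIN (-1.19), TMEM176A (-1.07) and NFIX (0.94) differed. CORIN and NFIX differed in opposite directions with shERK5-4 and shERK5-5. None of these genes changed the sign of its line difference.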

How the results depend on the processing

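The counts in each direction depended on the scaling, while the total of the calls was within 1.5 times of 11018 under every alternative except a minimum log2 difference of 1. With that minimum, 5261 probes were called, 2757 higher and 2504 lower in CHLA-90, and MAPK7 (0.95) no longer counted. With the values as deposited the shNSC comparison had 10919 higher and 2670 lower, the shERK5-4 comparison 9881 and 2262, and the shERK5-5 comparison 10946 and 2652. Housekeeping centring gave 8701 higher and 3324 lower with shNSC, and median centring gave 8446 lower with shNSC and 8168 lower with shERK5-4. The cause of these shifts was not tested beyond the array medians, which differ between the lines. MYCN, MAPK7 and the 30 genes of the extremes changed sign under none of the alternatives run for them. Relative to all named genes, list medians kept their sign under every scaling except those of blood markers, DLX and other homeobox genes, mitosis genes, housekeeping genes, interferon-stimulated genes and p53 targets, all within 0.25 of 0, and those of replication genes and clustered histones, which came to 0 at 2 decimals under some scalings. For single genes and lists, 670 values were counted as unchanged and 37 as moved. An unchanged value could still differ in size, since DCDC1 was 8.83 in the main fit and 4.85 with its probes averaged. Leaving out 1 array gave 9766 to 10381 calls with shNSC (4813 to 5066 higher, 4953 to 5315 lower), 8015 to 10087 with shERK5-4 (4018 to 4971 higher, 3997 to 5116 lower) and 8334 to 9873 with shERK5-5 (4236 to 4966 higher, 4098 to 4907 lower), with MYCN between -8.77 and -8.48 and MAPK7 between 0.79 and 1.04. The replicate block gave 10996 calls with shNSC, 9897 with shERK5-4 and 9897 with shERK5-5. Arrays of the same number correlated in their deviations with r of 0.00648, -0.0122 and 0.11. For arrays of different numbers r lay between -0.0748 and 0.0757. The deviations of the 3 arrays of a line sum to 0, so these values cannot tell whether arrays of the same number shared a batch. With no detection calls, differences between dim signals are uncertain in size.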
